A study of Mus musculus with 8 samples.

Results

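The 56 genes described here encode the machinery that duplicates DNA, the enzymes that supply its nucleotides, and the cyclins, kinase and E2F factors of the G1/S transition. They were taken by symbol from a list ordered by complex and step, and each was found once among the 28432 genes of the count table. RNA was measured in retinas of 8 mouse embryos at E15.5, with both retinas of 1 embryo as 1 sample. The 4 *Lhx2* CKO embryos carried 1 floxed and 1 null (KO) allele of *Lhx2*, and the 4 control embryos carried 1 floxed and 1 wild-type allele. All 8 embryos were heterozygous for Hes1CreERT2, an inducible Cre knocked into the *Hes1* locus, and for the *Rosa26* ai14 reporter of Cre activity, and the dams of both groups received tamoxifen at E11.5 (0.15 to 0.2 mg per gram of body weight). Cre activity therefore follows *Hes1*, a gene of retinal progenitor cells (RPCs), both groups carry the modified *Hes1* allele, and the null allele of *Lhx2* is present in every CKO cell, not only in RPCs. Recombined embryos were picked by reporter fluorescence and, where possible, sorted into the groups by small eyes before genotyping. The 4 embryos of each genotype came from 3 litters, and the p-values measure the spread among these embryos.

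A cell about to divide loads the MCM2-7 helicase onto replication origins in G1, under the control of the origin recognition complex, Cdc6 and Cdt1. Cyclin-dependent kinases and the Cdc7-Dbf4 kinase then convert the loaded helicase into a moving fork, where DNA polymerases copy both strands. Much of this machinery is transcribed from promoters bound by E2F factors, which the Rb proteins hold in check until cyclins D and E inactivate them. In the retina at E15.5 RPCs divide, while ganglion cells and other early neurons have left the cell cycle.

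Total counts ranged from 13955259 to 19099937 reads in CKO samples and from 13143587 to 15063867 in control samples. *Lhx2* had 2557 to 2868 normalized counts in CKO samples, against 3081 to 3631 in control samples over the whole gene. Cre removes only some of its exons, so this total is no check of the deletion. CKO replicate 1 and control replicate 3 lay farthest from 0 on the second principal component of all genes tested, at scores of 28.5 and -22.5. Markers of the tissue were present, with *Pax6*, an eye field and progenitor factor, at 11263 to 12224 normalized counts in CKO samples, against 10011 to 11052 in control samples. Markers of neighboring tissue were mixed. *Cryaa* of the lens had at most 4.27 normalized counts in a CKO sample and 15.1 in a control sample, and *Rpe65* of the retinal pigment epithelium at most 0.862 and 1.04, but other genes of both lists were higher and some differed between the groups, as given with the lists of other cell types. By *Xist* reads, CKO replicate 1 was the only female of the CKO embryos, and control replicates 1 and 4 were female. Normalized counts are read counts divided by the size factor of the sample, and log2FC is CKO over control.

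Of the 56 genes, all passed the filter on low counts, 40 fell in the CKO, none rose and 16 did not pass the test (edgeR's quasi-likelihood test, Benjamini-Hochberg adjusted p below 0.001 over 13891 genes). By the same rule 4.97% of all genes tested were lower in the CKO and 3.64% were higher. The median log2FC of the 56 genes was -0.50, which is a fold change of 0.707, and their quartiles were -0.62 and -0.39. For all genes tested the median was 0.01, with quartiles of -0.17 and 0.19. In 50 of the 56 genes every CKO sample lay below every control sample, a pattern that 17.9% of all genes tested showed. The 6 genes whose groups overlapped were *Orc5*, *Cdc7*, *Pole*, *Rfc1*, *Ccne1* and *E2f1*. Summed over the 56 genes, the level was 55192 to 62162 normalized counts in CKO samples, against 81592 to 85616 in control samples. Without CKO replicate 1 and control replicate 3, an alternative chosen after seeing the data, 45 of the 56 genes fell, against 7.76% of all genes tested.

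**Figure D1:**
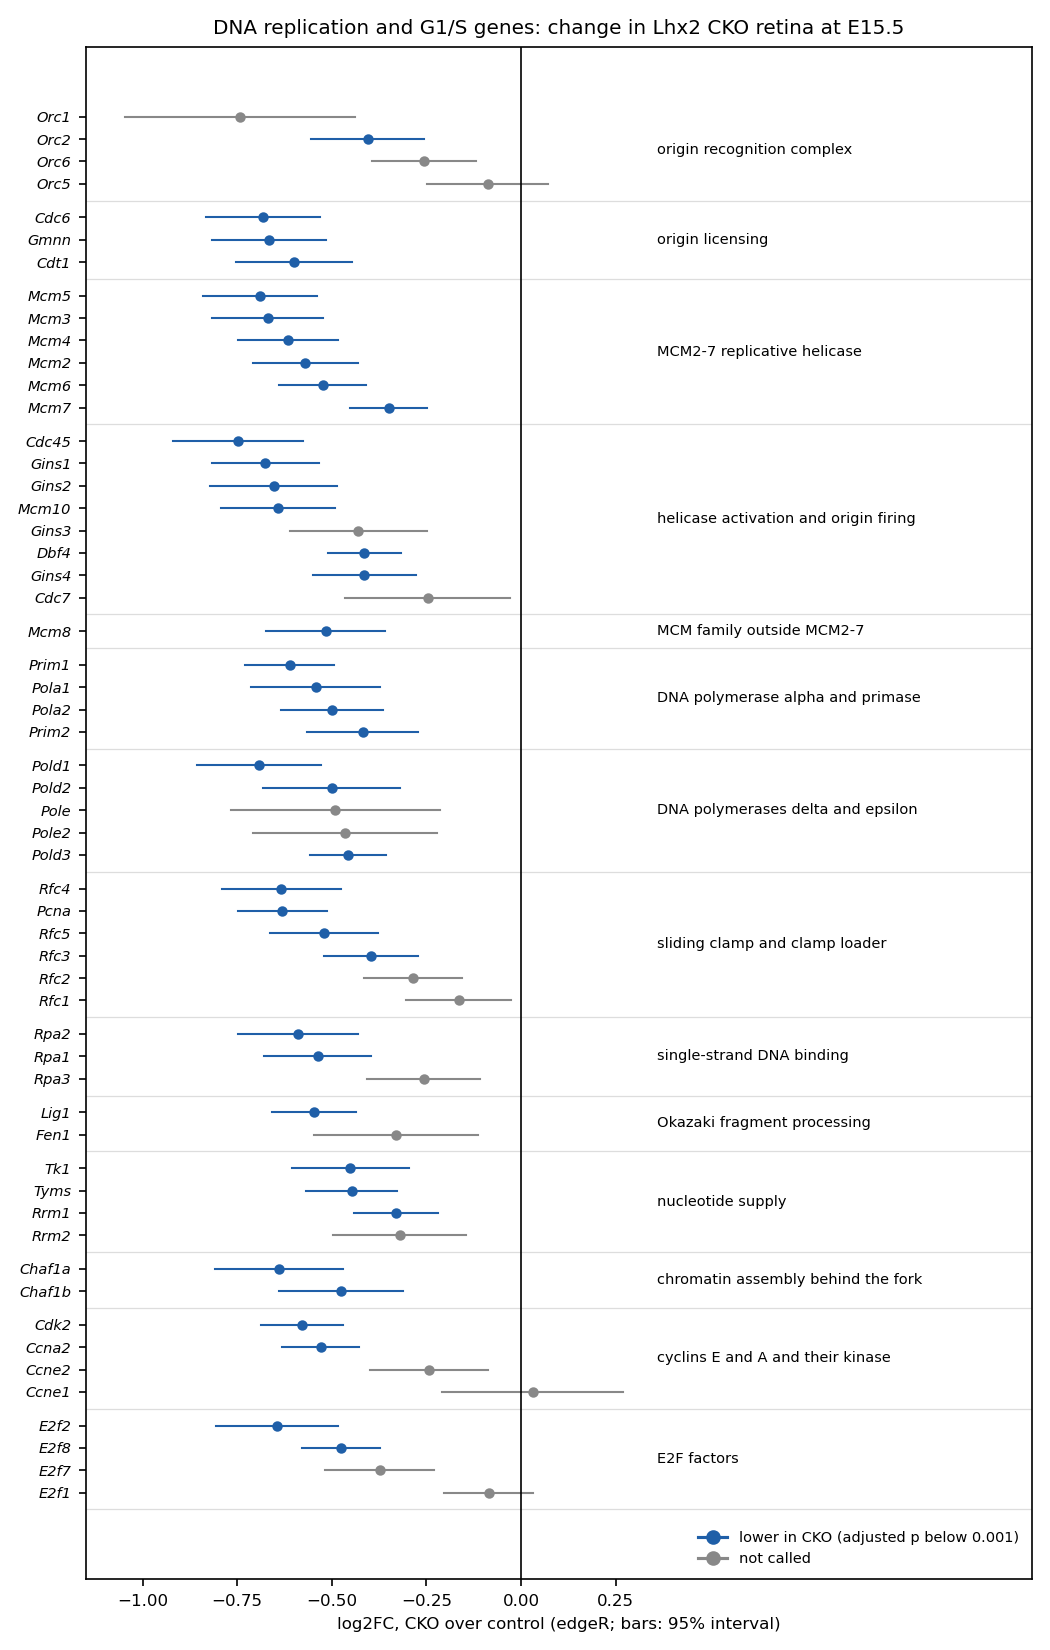
Log2FC (CKO over control, x axis) of each of the 56 genes, grouped by role, with bars for the 95% interval of the edgeR fit (n = 4 a group); blue marks genes that fell and gray genes that did not pass. All points but that of *Ccne1* lie left of 0, and the intervals of *Orc5*, *Ccne1* and *E2f1* include 0.

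The fall was not the same size in every gene. For 8 genes (*Cdc6*, *Gmnn*, *Mcm3*, *Mcm5*, *Cdc45*, *Gins1*, *Pold1* and *Pcna*) the 95% interval of the log2FC lay wholly below the median of the group, and for 12 genes (*Orc5*, *Orc6*, *Mcm7*, *Cdc7*, *Rfc1*, *Rfc2*, *Rpa3*, *Rrm1*, *Rrm2*, *Ccne1*, *Ccne2* and *E2f1*) it lay wholly above it. Within the CKO group, replicate 1 was the lowest sample for 37 of the 56 genes, whereas CKO replicates 2, 3 and 4 were lowest for 9, 4 and 6. The median over the genes of the log2 ratio to the control mean was -0.60 in CKO replicate 1 and -0.48, -0.45 and -0.50 in CKO replicates 2, 3 and 4; in control replicates 1 to 4 it was 0.04, -0.03, 0.02 and -0.02. With embryo sex added to the fit 39 genes fell, against 4.77% of all genes tested. Without CKO replicate 1 the median log2FC was -0.49 and 35 genes fell, against 4.23% of all genes tested in that fit. The median was thus below 0 in each of the 4 CKO samples and lowest in CKO replicate 1, the only female of them and the CKO sample farthest out on the second principal component.

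**Figure D2:**
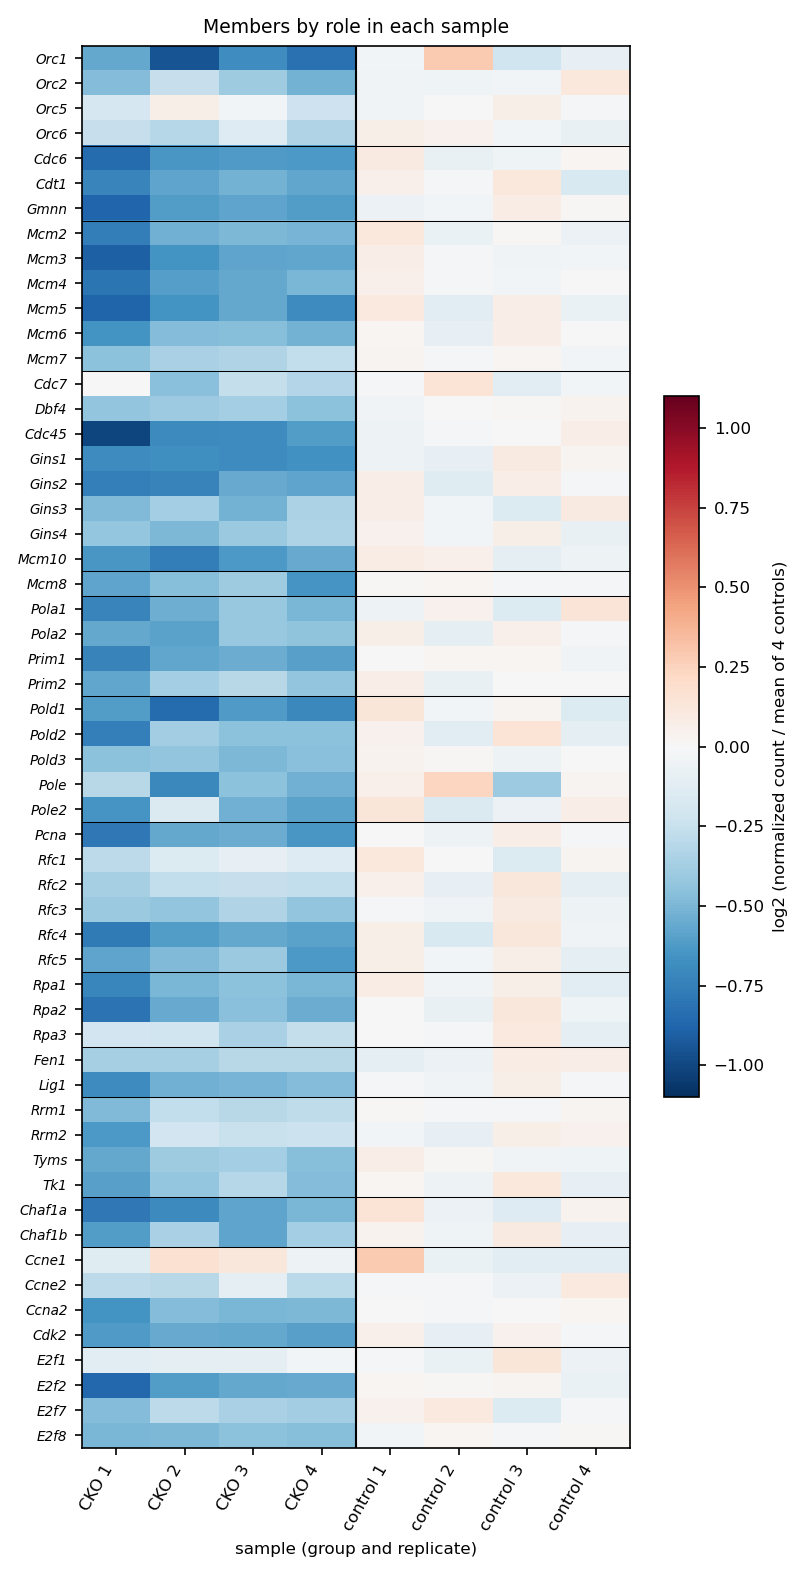
Each of the 56 genes (rows, in the order of the roles, with lines between roles) in each of the 8 samples (columns, CKO left of the black line), colored by the log2 ratio of its normalized count to the mean of the 4 control samples. The CKO columns are blue in nearly all rows, darkest in CKO replicate 1, and the rows of *Orc5*, *Ccne1* and *E2f1* stay pale.

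Promoters were searched for 3 kinds of motif. The genes were not picked by promoter sequence, but much of the replication machinery is known to be driven by E2F factors. A high share with an E2F motif was therefore likely from the choice of genes alone. RefSeq promoters (GRCm38.p6, 250 bases before to 50 bases after a transcription start) were matched by symbol for 46 of the 56 genes. An E2F motif (TTTCCCGC, TTTGGCGC, TTTCGCGC or TTTGCCGC, on either strand) was found in 18 of the 46 (39.1%), against 2.61% of all 27025 genes with a promoter and 4.63% of the 10164 tested genes matched. The CCAAT motif, bound by NF-Y, was found in 28 of 46 (60.9%), against 41.1% of all genes and 43.2% of the tested genes matched. The CHR motif of G2/M promoters (TTTGAA or TTCGAA) was found in 11 of 46 (23.9%), against 21.7% of all genes and 15.7% of the tested genes matched. These shares are a description with no test, and a match of letters is not a binding site. The median log2FC was -0.54 for the 18 genes with an E2F motif and -0.46 for the 28 without one. Within the 18 genes the log2FC ranged from -0.74 for *Orc1* to -0.35 for *Mcm7*.

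The 8 stretches here are those of genes with 1 RefSeq promoter and every E2F match before the RefSeq start. They are shown because they carry the motif shared by genes of different roles. The stretch of *Cdc6* lies within the gene's span in GENCODE M21, which begins upstream of the RefSeq start. Each runs 5′ to 3′ on the strand of the gene, and capitals mark the E2F matches, which overlap in *Mcm5* and in the first pair of *Mcm6*.
Cdc6, chr11:98907978-98908055, plus strand: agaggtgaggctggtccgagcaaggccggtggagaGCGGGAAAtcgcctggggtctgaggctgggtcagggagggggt
Cdk2, chr10:128705149-128705226, minus strand: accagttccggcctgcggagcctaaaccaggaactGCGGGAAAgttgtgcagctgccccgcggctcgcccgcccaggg
E2f7, chr10:110745206-110745283, plus strand: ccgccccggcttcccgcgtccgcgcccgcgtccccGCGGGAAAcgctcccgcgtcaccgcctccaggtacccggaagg
Gins3, chr8:95633483-95633558, plus strand: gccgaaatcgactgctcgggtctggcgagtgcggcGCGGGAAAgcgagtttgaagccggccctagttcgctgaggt
Mcm5, chr8:75109321-75109402, plus strand: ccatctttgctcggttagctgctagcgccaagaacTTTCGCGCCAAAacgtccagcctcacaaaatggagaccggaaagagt
Mcm6, chr1:128359710-128359850, minus strand: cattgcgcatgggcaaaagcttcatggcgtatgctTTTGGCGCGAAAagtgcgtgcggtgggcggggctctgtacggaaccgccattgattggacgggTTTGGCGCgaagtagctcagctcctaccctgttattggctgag
Orc1, chr4:108579392-108579453, plus strand: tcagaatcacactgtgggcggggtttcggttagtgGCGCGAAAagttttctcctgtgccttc
Pola1, chrX:93632251-93632328, minus strand: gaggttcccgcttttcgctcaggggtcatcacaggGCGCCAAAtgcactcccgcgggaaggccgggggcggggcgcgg

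The matches began 27 to 198 bases before the RefSeq start, nearest in *Orc1* and farthest in *E2f7*. Beside these sequences, *Mcm5* and *Cdc6* fell with 95% intervals wholly below the median of the 56 genes. *Cdk2*, *Mcm6* and *Pola1* fell with log2FC of -0.58, -0.52 and -0.54, and their intervals included that median. *Orc1*, *Gins3* and *E2f7* had log2FC of -0.74, -0.43 and -0.37 without passing the test.

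The 3 genes of origin licensing fell together. *Cdc6*, the ATPase that loads the helicase (ENSMUSG00000017499, chromosome 11, 98907801 to 98923940 of GRCm38), had 401, 462, 469 and 466 normalized counts in CKO replicates 1 to 4, against 771, 681, 699 and 733 in control replicates 1 to 4. All 4 CKO samples lay below all 4 controls (log2FC -0.68, SE 0.0685, edgeR adjusted p = 3.1e-05). *Cdt1*, which brings the helicase to the origin, had 535, 592, 616 and 595 normalized counts in CKO replicates 1 to 4, against 918, 875, 959 and 791 in control replicates 1 to 4, again without overlap (log2FC -0.60, SE 0.0699, edgeR adjusted p = 8.3e-05). *Gmnn* encodes geminin, the inhibitor of Cdt1 that blocks a second round of licensing, and had 489, 586, 597 and 583 normalized counts in CKO replicates 1 to 4, against 856, 875, 945 and 901 in control replicates 1 to 4. It fell as well (log2FC -0.67, SE 0.0683, edgeR adjusted p = 3.4e-05), and the ratio of *Gmnn* to *Cdt1* counts within a sample was 0.914 to 0.99 in CKO samples, against 0.932 to 1.14 in control samples, ranges that overlap.

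The origin recognition complex, which marks origins for loading, showed the widest spread of any role. *Orc2* had 585, 681, 619 and 567 normalized counts in CKO replicates 1 to 4, against 792, 786, 795 and 880.0 in control replicates 1 to 4, and every CKO sample was below every control. *Orc2* alone of the 4 *Orc* genes passed (log2FC -0.41, SE 0.0683, edgeR adjusted p = 9.8e-04), and its call was lost without CKO replicate 1, 3 or 4 or control replicate 1, 2, 3 or 4 (edgeR adjusted p = 0.00118 to 0.00439); 29.8% of its exon bases overlap *Nif3l1* on the other strand, and reads of the pair cannot be separated, since the kit did not mark strand. *Orc1*, the least abundant of the 4 genes per length, had 102, 78.4, 94.1 and 85.4 normalized counts in CKO replicates 1 to 4, against 148, 184, 130.2 and 142 in control replicates 1 to 4. Its log2FC of -0.74 was second only to that of *Cdc45*, but its standard error was 0.139, against a median of 0.0682 over the 56, and it did not pass (edgeR adjusted p = 0.00185). *Orc6* had 779.9 ± 47.6 normalized counts in CKO retinas and 933 ± 44.6 in control retinas (SD, n = 4; log2FC -0.26, 95% interval -0.39 to -0.12, edgeR adjusted p = 0.00845). *Orc5* had 460.0, 545, 512 and 445 normalized counts in CKO replicates 1 to 4, against 507, 519.7, 547 and 514 in control replicates 1 to 4, and the groups overlapped (log2FC -0.09, 95% interval -0.25 to 0.07, edgeR adjusted p = 0.385). Within each sample the ratio of *Orc5* to *Orc2* was 0.785 to 0.827 in CKO samples, against 0.585 to 0.688 in control samples.

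All 6 subunits of the MCM2-7 helicase, the ring that unwinds DNA at the fork, fell in the CKO. *Mcm2* (ENSMUSG00000002870, chromosome 6, 88883474 to 88898780 of GRCm38) had 2198, 2588, 2648 and 2609 normalized counts in CKO replicates 1 to 4, against 4031, 3555, 3765 and 3566 in control replicates 1 to 4. The groups were apart by more than the spread within either (log2FC -0.57, SE 0.0635, edgeR adjusted p = 6.0e-05). *Mcm3* had 1805, 2132, 2251 and 2271 normalized counts in CKO replicates 1 to 4, against 3537, 3339, 3285 and 3298 in control replicates 1 to 4. *Mcm4* had 1569.8, 1801, 1864 and 1935 normalized counts in CKO replicates 1 to 4, against 2851, 2713, 2689.8 and 2733 in control replicates 1 to 4. Both were lower in every CKO sample, with log2FC of -0.67 for *Mcm3* (SE 0.0667, edgeR adjusted p = 2.9e-05) and -0.62 for *Mcm4* (SE 0.0602, edgeR adjusted p = 2.6e-05). *Mcm5* had 1791, 2093, 2227 and 2044 normalized counts in CKO replicates 1 to 4, against 3541, 3044, 3454 and 3129 in control replicates 1 to 4. *Mcm6* had 3028, 3433, 3448 and 3332 normalized counts in CKO replicates 1 to 4, against 4846, 4472, 5004 and 4744 in control replicates 1 to 4. CKO replicate 1 was the lowest sample for both, and the falls passed the test with log2FC of -0.69 for *Mcm5* (edgeR adjusted p = 2.9e-05) and -0.52 for *Mcm6* (edgeR adjusted p = 2.9e-05). *Mcm7* had 3156, 3367, 3425 and 3569.5 normalized counts in CKO replicates 1 to 4, against 4408, 4244, 4369 and 4227 in control replicates 1 to 4. Its fall was the smallest of the 6 (log2FC -0.35, 95% interval -0.45 to -0.25, edgeR adjusted p = 2.0e-04), its interval did not reach those of *Mcm3*, *Mcm4* or *Mcm5*, and its call was lost without CKO replicate 2 or 3 or control replicate 1 (edgeR adjusted p = 0.00102 to 0.00107). Of its exon bases, 3.89% lie in *Mir25* and *Mir93* on the same strand and 8.7% overlap *Ap4m1* and *Cops6* on the other strand.

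Although the 6 subunits form a ring with 1 copy of each, their RNA levels per kilobase of exon were unequal in both groups. The length used joins all annotated exons of a gene and may exceed that of the transcripts present. On this scale *Mcm2* was lowest, at 361 ± 30.2 in CKO retinas and 536 ± 32.0 in control retinas (normalized counts per kb, SD, n = 4). Its rank rests on its length of 6956 bases, the longest of the 6. Its mean normalized count was above those of *Mcm3*, *Mcm4* and *Mcm5* in both groups. *Mcm7* had 764 ± 38.7 in CKO retinas and 974 ± 20.4 in control retinas on the same scale and *Mcm6* 709 ± 41.8 in CKO retinas and 1022 ± 47.9 in control retinas. *Mcm7* was thus the highest of the 6 in the CKO and *Mcm6* the highest in controls, but the ranges over samples of these 2 genes overlapped in both groups. The highest mean of the 6 was 2.12 times the lowest in CKO retinas and 1.91 times the lowest in control retinas. The lowest was that of *Mcm2*, so these ratios rest on its exon length too. Within a sample the ratio of *Mcm7* to *Mcm3* normalized counts was 1.52 to 1.75 in CKO samples, against 1.25 to 1.33 in control samples.

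**Figure D3:**
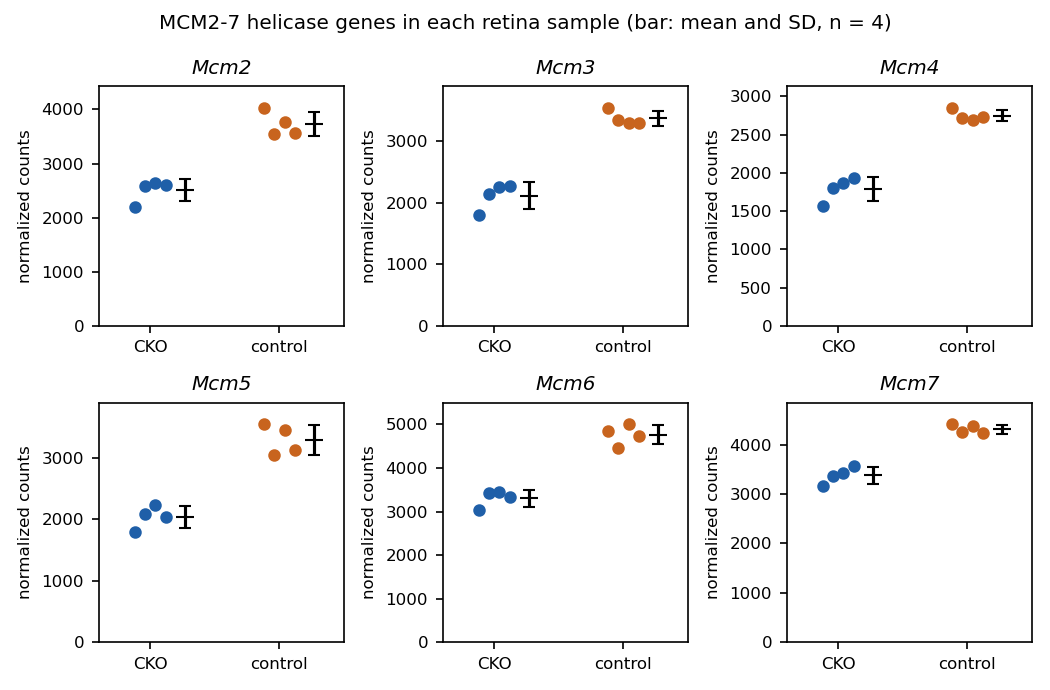
Normalized counts of the 6 MCM2-7 genes in each sample (points, replicates 1 to 4 from left to right; y axis from 0), CKO in blue and control in orange, with the mean and SD (n = 4) beside them. No CKO sample reaches a control sample in any panel, and the gap is narrowest for *Mcm7*.

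*Mcm8*, a relative of these subunits that works in homologous recombination and is not part of the MCM2-7 ring, had 308, 334, 351 and 295 normalized counts in CKO replicates 1 to 4, against 466, 468, 453 and 458 in control replicates 1 to 4. It fell by a similar amount (log2FC -0.52, SE 0.0717, edgeR adjusted p = 2.7e-04), with the call lost without CKO replicate 2 or 4 or control replicate 1, 2 or 4 (edgeR adjusted p = 0.00115 to 0.00152).

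Of 8 genes that turn the loaded helicase into an active fork, 6 fell. *Cdc45*, a helicase cofactor, had the most negative log2FC of all 56 genes: 452, 563, 564 and 595 normalized counts in CKO replicates 1 to 4, against 875, 903, 912 and 957 in control replicates 1 to 4 (log2FC -0.75, SE 0.0781, edgeR adjusted p = 4.0e-05). The GINS complex, the other cofactor, has 4 subunits. *Gins1* had 326, 330.0, 325 and 332 normalized counts in CKO replicates 1 to 4, against 506, 495, 562 and 538 in control replicates 1 to 4. The 4 CKO samples spanned only 325 to 332 normalized counts, far below the lowest control (log2FC -0.68, SE 0.0647, edgeR adjusted p = 2.2e-05). *Gins2* also fell (log2FC -0.65, edgeR adjusted p = 8.5e-05), although 67.3% of its exon bases overlap *Gse1* on the other strand. *Gins4* had 510.0, 487, 514 and 541 normalized counts in CKO replicates 1 to 4, against 707, 669, 715 and 647 in control replicates 1 to 4; its fall (log2FC -0.41, edgeR adjusted p = 4.3e-04) did not pass without CKO replicate 2, 3 or 4 or control replicate 1, 2 or 4 (edgeR adjusted p = 0.00108 to 0.00236). *Gins3* had 229, 247, 223 and 252 normalized counts in CKO replicates 1 to 4, against 337, 313, 289 and 342 in control replicates 1 to 4. No CKO sample overlapped a control, but the gene did not pass (log2FC -0.43, 95% interval -0.61 to -0.25, edgeR adjusted p = 0.0022) except without control replicate 3 (edgeR adjusted p = 8.3e-04). *Mcm10*, which helps to start unwinding, fell too (log2FC -0.64, edgeR adjusted p = 4.7e-05).

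The 2 subunits of the kinase that fires origins differed in their calls. *Dbf4*, the regulatory subunit, had 1200.0 ± 28.4 normalized counts in CKO retinas and 1601 ± 35.9 in control retinas (SD, n = 4), and fell (log2FC -0.41, SE 0.0442, edgeR adjusted p = 4.6e-05). *Cdc7*, the catalytic subunit, had 971, 704, 806 and 776 normalized counts in CKO replicates 1 to 4, against 957, 1074, 895 and 951 in control replicates 1 to 4. CKO replicate 1 lay above 3 of the 4 controls, the groups overlapped and the gene did not pass (log2FC -0.25, 95% interval -0.46 to -0.03, edgeR adjusted p = 0.0774). Without CKO replicate 1 its log2FC was -0.35 (edgeR adjusted p = 0.00615), and without CKO replicate 1 and control replicate 3 it passed (log2FC -0.39, edgeR adjusted p = 6.6e-04). The difference between the 2 subunits was not tested.

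All 4 genes of DNA polymerase alpha and primase, which together lay down the primers of every new strand, fell. *Prim1*, the catalytic primase subunit, had 658, 737, 752 and 725 normalized counts in CKO replicates 1 to 4, against 1091, 1116, 1115 and 1066 in control replicates 1 to 4. This was among the most even falls, with an SE of 0.0535 (log2FC -0.61, edgeR adjusted p = 1.2e-05). *Prim2*, the large primase subunit, had 466, 536, 563 and 513 normalized counts in CKO replicates 1 to 4, against 732, 656, 695 and 696 in control replicates 1 to 4; the call (log2FC -0.42, edgeR adjusted p = 7.2e-04) was lost without CKO replicate 1, 2, 3 or 4 or control replicate 1, 2 or 4 (edgeR adjusted p = 0.00108 to 0.00359). *Pola1*, the catalytic polymerase subunit and the only X-linked gene of the 56, had 805, 912, 997 and 937 normalized counts in CKO replicates 1 to 4, against 1276, 1372, 1195 and 1468 in control replicates 1 to 4. It fell (log2FC -0.54, SE 0.0779, edgeR adjusted p = 3.4e-04), but not without CKO replicate 2 or 4 or control replicate 1, 2 or 4 (edgeR adjusted p = 0.00106 to 0.00158). With embryo sex, read from *Xist*, added to the fit, its log2FC was -0.55 (edgeR adjusted p = 6.0e-04). *Pola2*, the accessory subunit, had 709 ± 42.9 normalized counts in CKO retinas and 1003 ± 54.5 in control retinas (SD, n = 4; log2FC -0.50, edgeR adjusted p = 1.2e-04).

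Among the polymerases that extend these primers, the delta subunits *Pold1*, *Pold2* and *Pold3* fell, and the epsilon subunits *Pole* and *Pole2* did not pass. *Pold4*, a further delta subunit, was on the list of further replication genes. Its groups overlapped and it did not pass (log2FC -0.08, edgeR adjusted p = 0.729). *Pole3*, an epsilon subunit on that list, did not pass either (log2FC -0.31, edgeR adjusted p = 0.00151). *Pold1*, the catalytic subunit of polymerase delta, which copies the lagging strand, fell most (946 ± 71.2 normalized counts in CKO retinas and 1531 ± 126 in control retinas, SD, n = 4; log2FC -0.69, edgeR adjusted p = 5.0e-05). *Pold3* had 1216, 1227, 1176 and 1208 normalized counts in CKO replicates 1 to 4, against 1709, 1670.4, 1594 and 1667 in control replicates 1 to 4. The 4 CKO values were within 1176 and 1227 (log2FC -0.46, SE 0.0458, edgeR adjusted p = 3.0e-05). *Pold2* had 659, 851, 809.5 and 809.9 normalized counts in CKO replicates 1 to 4, against 1145, 1016, 1232 and 1036 in control replicates 1 to 4, and its call (log2FC -0.50, edgeR adjusted p = 8.7e-04) did not hold without CKO replicate 1, 2, 3 or 4 or control replicate 1, 2, 3 or 4 (edgeR adjusted p = 0.00104 to 0.00391). *Pole*, the catalytic subunit of the leading-strand polymerase, had 1079, 817, 973 and 922 normalized counts in CKO replicates 1 to 4, against 1389.5, 1570.4, 1013 and 1361 in control replicates 1 to 4. Control replicate 3 lay below the highest CKO sample, and the gene did not pass (log2FC -0.49, 95% interval -0.77 to -0.22, edgeR adjusted p = 0.0111). Without that library the log2FC of *Pole* was -0.60 and it passed (edgeR adjusted p = 7.8e-04). *Pole2* had 242 ± 39.1 normalized counts in CKO retinas and 335 ± 30.1 in control retinas (SD, n = 4; log2FC -0.47, 95% interval -0.71 to -0.22, edgeR adjusted p = 0.00755). The log2FC of *Pole* and *Pole2* thus lay close to those of *Pold2* and *Pold3*, with standard errors of 0.126 and 0.111.

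*Pcna*, the ring that holds polymerases on DNA (ENSMUSG00000027342, chromosome 2, 132249162 to 132253314 of GRCm38), had 1951, 2277, 2299.5 and 2159 normalized counts in CKO replicates 1 to 4, against 3375, 3241, 3531 and 3310.2 in control replicates 1 to 4. The highest CKO sample, at 2299.5, lay well below the lowest control, at 3241 (log2FC -0.63, SE 0.0542, edgeR adjusted p = 1.1e-05). Its loader, replication factor C, has 5 subunits that form 1 complex, yet their RNA changed unequally. *Rfc4* fell most (564 ± 37.0 normalized counts in CKO retinas and 875 ± 74.5 in control retinas, SD, n = 4; log2FC -0.63, edgeR adjusted p = 6.8e-05) and *Rfc5* next (log2FC -0.52, edgeR adjusted p = 1.3e-04). *Rfc3* had 619, 608, 654 and 609 normalized counts in CKO replicates 1 to 4, against 815, 798, 880.2 and 792 in control replicates 1 to 4; the fall (log2FC -0.40, edgeR adjusted p = 3.4e-04) did not pass without CKO replicate 2 or 4 or control replicate 1, 2 or 4 (edgeR adjusted p = 0.00133 to 0.00194). *Rfc2* had 1109.9 ± 38.0 normalized counts in CKO retinas and 1354 ± 109 in control retinas (SD, n = 4) and did not pass (log2FC -0.29, 95% interval -0.42 to -0.16, edgeR adjusted p = 0.00351). *Rfc1*, the large subunit, had 1656, 1829.8, 1906 and 1838 normalized counts in CKO replicates 1 to 4, against 2191, 2024, 1821 and 2072 in control replicates 1 to 4. CKO replicates 2, 3 and 4 lay above control replicate 3, and the interval of *Rfc1* lay wholly above those of *Rfc4* and *Rfc5* (log2FC -0.17, 95% interval -0.30 to -0.03, edgeR adjusted p = 0.0664). Within a sample the ratio of *Rfc1* to *Rfc4* was 3.16 to 3.25 in CKO samples, against 1.91 to 2.59 in control samples.

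Replication protein A, the trimer that coats single-stranded DNA, also had members that passed and 1 that did not. *Rpa1*, the large subunit, had 1180.5, 1369.8, 1421 and 1369 normalized counts in CKO replicates 1 to 4, against 2054, 1887, 2021 and 1789 in control replicates 1 to 4, and fell (log2FC -0.54, SE 0.0644, edgeR adjusted p = 1.0e-04). *Rpa2* had 1035 ± 105 normalized counts in CKO retinas and 1558 ± 98.9 in control retinas (SD, n = 4; log2FC -0.59, edgeR adjusted p = 1.1e-04). *Rpa3*, the small subunit, had 445, 441, 401 and 430.1 normalized counts in CKO replicates 1 to 4, against 515, 506, 556 and 482 in control replicates 1 to 4. Every CKO value was below every control, but the difference did not pass (log2FC -0.26, 95% interval -0.41 to -0.11, edgeR adjusted p = 0.0132).

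Of the 2 genes that finish the fragments of the lagging strand, *Lig1*, DNA ligase 1, had 1965, 2199, 2226 and 2275 normalized counts in CKO replicates 1 to 4, against 3142, 3080.4, 3312 and 3135 in control replicates 1 to 4, lower in every CKO sample (log2FC -0.55, SE 0.0507, edgeR adjusted p = 1.8e-05). *Fen1*, the flap nuclease, had 92.2, 92.2, 96.3 and 96.0 normalized counts in CKO replicates 1 to 4, against 111, 114, 126 and 125 in control replicates 1 to 4. It was 1 of only 2 genes of the 56, with *Orc1*, with under 100 normalized counts in any sample, and it did not pass (log2FC -0.33, 95% interval -0.55 to -0.11, edgeR adjusted p = 0.024). On the other strand, exons of *Tmem258* and *Gm10143* overlap 84.2% of the exon bases of *Fen1*, so its level is uncertain.

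Of the 4 genes of nucleotide supply, 3 fell and 1 did not pass, with log2FC of all 4 between -0.45 and -0.32. *Tyms*, thymidylate synthase, had 806, 906, 919 and 862 normalized counts in CKO replicates 1 to 4, against 1251, 1201, 1161 and 1152 in control replicates 1 to 4, and passed (log2FC -0.45, SE 0.055, edgeR adjusted p = 1.2e-04). *Tk1*, thymidine kinase 1, had 479.8, 538, 581 and 519 normalized counts in CKO replicates 1 to 4, against 736, 695, 783 and 681 in control replicates 1 to 4; the fall (log2FC -0.45, edgeR adjusted p = 6.0e-04) was lost without CKO replicate 1, 2 or 4 or control replicate 1, 2 or 4 (edgeR adjusted p = 0.0014 to 0.00312). *Rrm1*, the large subunit of ribonucleotide reductase, had 3734, 4319.6, 4222 and 4310.1 normalized counts in CKO replicates 1 to 4, against 5252, 5148, 5156 and 5315 in control replicates 1 to 4. It fell by less than *Pcna* or *Cdc6* (log2FC -0.33, 95% interval -0.44 to -0.22, edgeR adjusted p = 5.3e-04) and did not pass without CKO replicate 2, 3 or 4 or control replicate 1, 2 or 4 (edgeR adjusted p = 0.00141 to 0.0025). *Rrm2*, the subunit whose amount limits the enzyme in S phase, had 2070.2, 2768, 2703 and 2726 normalized counts in CKO replicates 1 to 4, against 3144, 3012, 3346 and 3322 in control replicates 1 to 4. CKO replicate 1 was far below the other 3, which lay closer to the controls but did not reach them, and the gene did not pass (log2FC -0.32, 95% interval -0.50 to -0.15, edgeR adjusted p = 0.00967). Without CKO replicate 1 the log2FC of *Rrm2* was -0.23 (edgeR adjusted p = 0.00417).

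*Chaf1a*, the large subunit of the chaperone that places histones behind the fork, had 799, 851, 922 and 972 normalized counts in CKO replicates 1 to 4, against 1534, 1318, 1250.1 and 1416 in control replicates 1 to 4, and fell (log2FC -0.64, SE 0.077, edgeR adjusted p = 1.0e-04); 52.5% of its exon bases overlap *Ubxn6* on the other strand. *Chaf1b* had 425, 508, 435 and 500.5 normalized counts in CKO replicates 1 to 4, against 667, 629, 695 and 611 in control replicates 1 to 4. Its call (log2FC -0.48, edgeR adjusted p = 6.1e-04) was lost without CKO replicate 1, 2, 3 or 4 or control replicate 1, 2, 3 or 4 (edgeR adjusted p = 0.00101 to 0.00279).

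The cyclins that drive the G1/S transition and S phase did not move together. *Ccna2*, the cyclin A of S phase and G2, had 2518, 2859, 2803 and 2819 normalized counts in CKO replicates 1 to 4, against 3970.1, 3904, 3975 and 4036 in control replicates 1 to 4. *Cdk2*, the kinase that cyclins E and A activate (ENSMUSG00000025358, chromosome 10, 128697939 to 128705031 of GRCm38), had 752, 787, 784 and 766 normalized counts in CKO replicates 1 to 4, against 1201, 1089, 1193 and 1141 in control replicates 1 to 4. Both fell, and *Cdk2* had the smallest p-value of the 56 genes (*Ccna2*: log2FC -0.53, SE 0.0465, edgeR adjusted p = 1.3e-05; *Cdk2*: log2FC -0.58, SE 0.0495, edgeR adjusted p = 1.0e-05). *Ccne2*, a cyclin E, had 479.6 ± 34.7 normalized counts in CKO retinas and 568 ± 29.4 in control retinas (SD, n = 4) and did not pass (log2FC -0.24, 95% interval -0.40 to -0.09, edgeR adjusted p = 0.0209). *Ccne1*, the other cyclin E, had 275, 339, 327 and 289 normalized counts in CKO replicates 1 to 4, against 368, 285, 275 and 275 in control replicates 1 to 4. It was the only gene of the 56 with a log2FC above 0, the groups overlapped, and 3 of the 4 CKO samples lay above 3 of the 4 controls (log2FC 0.03, 95% interval -0.21 to 0.27, edgeR adjusted p = 0.855); the sign turned without control replicate 3, control replicate 4 or CKO replicate 2 (log2FC -0.01 each). Its lower bound of -0.21 excludes a fall of the size seen in *Ccna2* or *Cdk2*. The ratio of *Ccne1* to *Ccna2* counts within a sample was 0.103 to 0.118 in CKO samples, against 0.0682 to 0.0926 in control samples.

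Among the 4 E2F factors, 2 fell and 2 did not pass. *E2f1* and *E2f2* are activators, and *E2f7* and *E2f8* are repressors that bind the same kind of site without a DP partner. *E2f8* had 718, 725, 747 and 738 normalized counts in CKO replicates 1 to 4, against 1001, 1035, 1013 and 1029 in control replicates 1 to 4. The spread within each group was small and the fall passed (log2FC -0.48, SE 0.0474, edgeR adjusted p = 2.9e-05). *E2f2* had 438 ± 42.5 normalized counts in CKO retinas and 684 ± 22.0 in control retinas (SD, n = 4; log2FC -0.64, edgeR adjusted p = 7.2e-05). *E2f7* had 801 ± 41.6 normalized counts in CKO retinas and 1038 ± 77.3 in control retinas (SD, n = 4), with no overlap of the groups, and missed the cutoff (log2FC -0.37, 95% interval -0.52 to -0.23, edgeR adjusted p = 0.00125) except without control replicate 3 (edgeR adjusted p = 1.9e-04). *E2f1*, the most abundant of the 4 per kilobase of exon, had 1577, 1591, 1605 and 1678 normalized counts in CKO replicates 1 to 4, against 1702, 1632, 1883 and 1638 in control replicates 1 to 4. The groups overlapped and the gene did not pass (log2FC -0.09, 95% interval -0.20 to 0.03, edgeR adjusted p = 0.248). The ratio of *E2f1* to *E2f2* within a sample was 3.46 to 4.21 in CKO samples, against 2.36 to 2.69 in control samples, and that of *E2f1* to *E2f8* was 2.15 to 2.27 in CKO samples, against 1.58 to 1.86 in control samples.

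**Figure D4:**
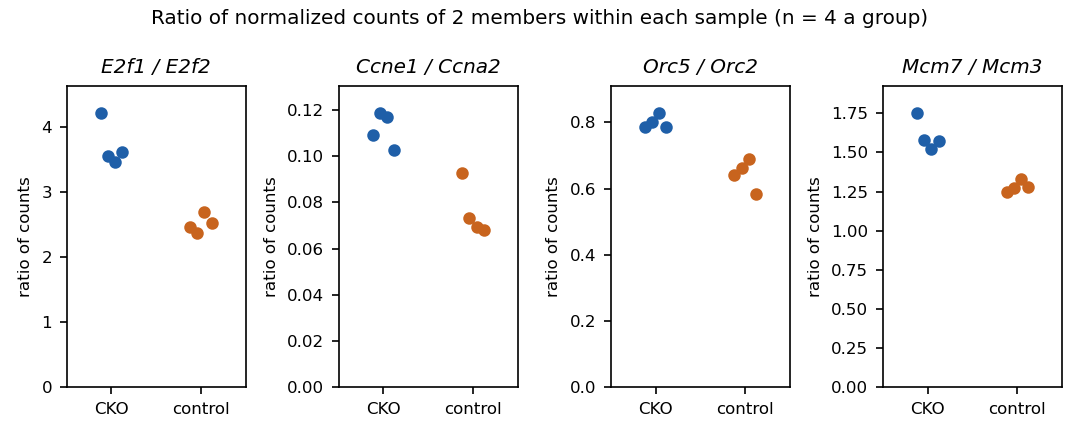
Ratio of the normalized counts of 2 genes within each sample (y axis from 0; 1 point per sample, CKO in blue, control in orange), for 4 pairs chosen after their values were seen. In each panel the 4 CKO samples lie above the 4 control samples: the gene over the line fell less than the gene under it, or did not change detectably.

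The pairs in these ratios were chosen after their values were seen, so the ratios are a description and were not tested. The 95% interval of *E2f1* (-0.20 to 0.03) lay wholly above that of *E2f2* (-0.81 to -0.48).

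Among 55 further genes of replication, 24 fell, none rose and 31 did not pass (median log2FC -0.34). That list was written from general knowledge, but with earlier results of these data known. *Uhrf1*, which carries DNA methylation through replication, had the smallest p-value of the list (log2FC -0.74, edgeR adjusted p = 3.4e-06), and those that fell included *Dtl*, the adaptor that targets Cdt1 for destruction (log2FC -0.67, edgeR adjusted p = 2.5e-05), *Timeless* of the fork protection complex (log2FC -0.54, edgeR adjusted p = 2.6e-05) and *Ung*, uracil DNA glycosylase (log2FC -0.74, edgeR adjusted p = 3.8e-05). The remaining *Orc* genes, *Orc3* and *Orc4*, were not changed detectably (*Orc3*: log2FC -0.0027, edgeR adjusted p = 0.977; *Orc4*: log2FC 0.15, edgeR adjusted p = 0.237), nor was *Pole4*, a small subunit of polymerase epsilon (log2FC -0.02, edgeR adjusted p = 0.798). Without control replicate 1, 2 or 4 the count that fell was 14, 15 and 14, and without CKO replicate 2 or 4 it was 14 and 14. In these fits 3.05% to 3.30% of all genes tested fell.

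Of 14 genes of the E2F, DP and Rb families and their partners outside the 56, 2 fell, none rose and 12 did not pass (median log2FC -0.21). The 2 that fell were *Rbl1*, which encodes the Rb relative p107 (log2FC -0.47, edgeR adjusted p = 3.3e-04), and *Mybl2*, B-Myb (log2FC -0.49, edgeR adjusted p = 4.1e-04). *Rb1* itself had a log2FC of 0.21 and did not pass (edgeR adjusted p = 0.0159). *E2f3*, the remaining activator, did not pass either (log2FC -0.26, edgeR adjusted p = 0.0119). Beside these, 41 of the 46 listed mitosis and G2/M genes fell, led by *Cdc25b*, a phosphatase that activates Cdk1 (log2FC -0.84, edgeR adjusted p = 9.4e-07), none rose, and their median log2FC was -0.50, against -0.50 for the 56 genes of replication and G1/S; the difference between the lists was not tested.

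**Figure D5:**
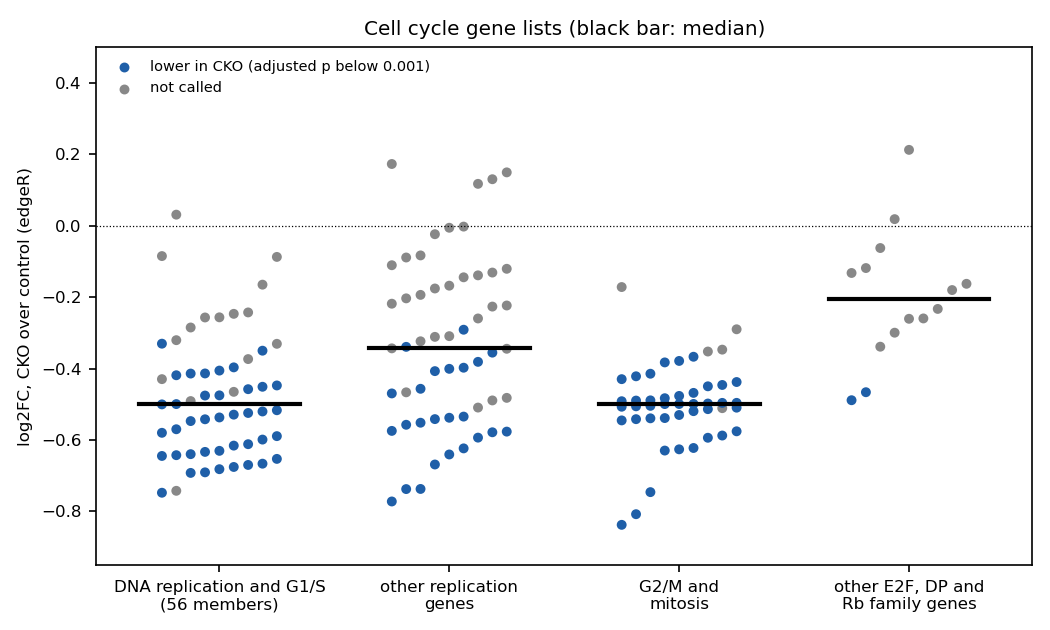
Log2FC (CKO over control, y axis) of each tested gene of 4 lists, 1 point per gene (blue, fell; gray, did not pass), and black bars mark medians. The medians of the replication and G1/S genes and of the mitosis genes both lie at -0.50, that of other replication genes at -0.34, and that of the other E2F, DP and Rb family genes at -0.21.

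In whole retinas, fewer dividing cells and less RNA of these genes per cell cannot be told apart. Progenitor genes moved with the 56: of 23 tested, 12 fell, 2 rose and 9 did not pass, and their summed level was 85832 to 98299 normalized counts in CKO samples, against 135153 to 146057 in control samples. Those that fell included *Dapl1* (log2FC -5.24, edgeR adjusted p = 1.5e-09), *Fgf15* (log2FC -2.77, edgeR adjusted p = 1.2e-07), *Fzd5* (log2FC -1.37, edgeR adjusted p = 1.7e-07) and *Hes1* (log2FC -1.53, edgeR adjusted p = 4.3e-07), while *Sfrp2* (log2FC 1.06, edgeR adjusted p = 7.8e-04) and *Vim* (log2FC 0.72, edgeR adjusted p = 3.0e-05) rose. *Pax6* did not pass (log2FC 0.13, edgeR adjusted p = 0.122). Ganglion cell genes moved the other way: of 22 tested, 11 rose, none fell and 11 did not pass, and their summed level was 110667 to 120007 normalized counts in CKO samples, against 79929 to 90571 in control samples. None of 9 photoreceptor precursor genes passed, with a summed level of 13824 to 15352 normalized counts in CKO samples, against 13079 to 14688 in control samples, and among 11 amacrine and horizontal cell genes *Foxn4* fell (log2FC -0.77, edgeR adjusted p = 3.2e-06) and *Lhx1* rose (log2FC 0.86, edgeR adjusted p = 2.8e-04). None of 6 blood genes tested passed, with a summed level of 601 to 1924 normalized counts in CKO samples, against 378 to 2416 in control samples, and none of 9 macrophage genes, with 758 to 1001 normalized counts in CKO samples, against 893 to 1068 in control samples. Of 8 endothelial genes tested, *Kdr* (log2FC -0.48, edgeR adjusted p = 2.6e-04) and *Cldn5* (log2FC -1.55, edgeR adjusted p = 1.9e-04) fell and the others did not pass. *Kdr* makes up most of the summed level of that list, 2677 to 3615 normalized counts in CKO samples, against 4398 to 4711 in control samples. Of 10 genes of the retinal pigment epithelium, 6 were tested, *Pmel* fell (log2FC -1.75, edgeR adjusted p = 8.9e-05), *Rlbp1* rose (log2FC 1.52, edgeR adjusted p = 2.9e-05), and the summed level was 538 to 1017 normalized counts in CKO samples, against 438 to 574 in control samples. *Rlbp1* had 393 to 508 normalized counts in CKO samples, against 118 to 216 in control samples and *Pmel* 37.3 to 55.8 normalized counts in CKO samples, against 115 to 202 in control samples. *Tyr*, *Tyrp1*, *Dct* and *Mitf* did not pass (log2FC -0.92, -1.52, -2.05 and -0.01). Of the 6 tested genes of that list only *Rlbp1* had a log2FC above 0, so the sum does not follow the other genes. *Ttr*, which did not pass the filter, had 379.9 normalized counts in CKO replicate 4, at most 19.9 in the other CKO samples and at most 18.3 in control samples. Lens genes summed to 73.2 to 152 normalized counts in CKO samples, against 57.7 to 104 in control samples, with neither of the 2 tested passing, although *Cryba1* had 21.5 to 58.0 normalized counts in CKO samples, against 3.04 to 12.1 in control samples (log2FC 2.83, edgeR adjusted p = 0.00132), and periocular mesenchyme genes to 48.5 to 142 normalized counts in CKO samples, against 108 to 189 in control samples, with *Col1a2* lower (log2FC -1.98, edgeR adjusted p = 4.5e-04) of 2 tested. The part of any of these shifts in the fall of the replication genes was not tested.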

How the data were processed

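RNA was measured in 8 samples, 4 CKO and 4 control, each with both retinas of 1 embryo. Libraries were poly(A)-selected and not strand-specific. The authors aligned single-end reads to mm10 with TopHat2 and deposited raw HTSeq counts per gene, not normalized or pooled. The sources used here name no versions of these tools, strand setting or annotation release. They do not say which litter or harvest day each sample came from, so neither entered a test. Total counts were 13955259 to 19099937 in CKO and 13143587 to 15063867 in control samples.

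The study's filter, 20 or more normalized counts in 3 or more samples, left 13891 of 28432 genes, which were tested with edgeR 4.0.16 (R 4.3.3, quasi-likelihood, TMM scaling, genotype only), adjusted over all of them by Benjamini-Hochberg and called below 0.001, the study's cutoff. Levels use median-of-ratios size factors; each SE was derived from the log2FC and its F statistic. The script was tested on simulated data. Exon lengths, positions and overlaps come from GENCODE M21 (GRCm38), which held 28232 of the gene IDs, and promoters from RefSeq. Every listed gene except *Lim2* of the lens was found by symbol.

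The members and lists were chosen with earlier results of these data known. All 56 members are accounted for; values per sample are given for the MCM2-7 genes, for the smallest and largest p-value of each other role, and for members that lost a call when 1 sample was left out; of other lists, up to 5 genes with the smallest p-values are named, except a few not reported here, and others were chosen after their values were seen. Alternatives were DESeq2 1.42.0, limma 3.58.1 voom, other scalings, filters and cutoff, 1 surrogate variable (sva 3.50.0), embryo sex, a replicate block and leaving out each sample.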

Additional observations from a re-analysis of the deposited data

Results flagged for a closer look

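In 10 of 112 groups of 4 values (56 genes in 2 genotypes), 1 sample lay far from the other 3 by Dixon's test at its 95% level, where chance flags about 1 group in 20. In 7 of the 10 groups that sample was CKO replicate 1, which was low each time. It held 401 normalized counts of *Cdc6*, against 462 to 469 in the other CKO samples, 489 of *Gmnn* (583 to 597), 2198 of *Mcm2* (2588 to 2648), 1053 of *Rfc2* (1125 to 1136), 3734 of *Rrm1* (4222 to 4320), 2070.2 of *Rrm2* (2703 to 2768) and 2518 of *Ccna2* (2803 to 2859). CKO replicate 3 held 532 normalized counts of *Ccne2*, against 461 to 464 in the other CKO samples. Control replicate 1 held 368 of *Ccne1*, against 275 to 285 in the other controls, and control replicate 4 held 880.0 of *Orc2*, against 786 to 795.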

How the results depend on the processing

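Of the 56 genes, 28 fell in every setting tried. The count that fell is given here with the share of all genes tested that fell in the same setting. It was 45 by DESeq2 (8.87%), 40 by limma voom (4.90%), 39 with median-of-ratios size factors (4.80%) and 41 with library totals (5.66%). It was 44 with no filter (3.84%), 40 with edgeR's filter (4.76%) and 51 at an adjusted p below 0.05 (17.4%). With 1 surrogate variable it was 40 (5.95%), with embryo sex 39 (4.77%) and with the replicate block 28 (2.91%). None of the 56 rose in any of these settings. Leaving out 1 sample gave 29 to 40, while the share of all genes that fell was 3.05% to 6.09%. The median log2FC stayed within the spread between replicates in all settings tried. Over all genes and settings, 82 of 1064 values lost their call (12 genes), 31 gained one (12 genes) and 3 turned sign, all of *Ccne1*: -0.00863 without control replicate 3, -0.00813 without control replicate 4 and -0.0106 without CKO replicate 2. Of the other replication genes, 39 fell and 1 rose at an adjusted p below 0.05, 14 fell with the replicate block, and 14 to 25 fell with 1 sample left out. Of the G2/M and mitosis genes, 26 fell with the replicate block and 29 to 43 with 1 sample left out. The labels do not say whether same-numbered samples share a litter or day. Their deviations from the group means correlated at -0.15 to 0.14, and 3 of 8 samples correlated best with their own number. So few samples cannot decide whether the numbers pair them. Over all 13891 genes 691 were lower and 505 higher by edgeR, 1091 and 964 without the filter (of 28432), 1232 and 1158 by DESeq2, 2412 and 2207 at an adjusted p below 0.05, and 404 and 272 with the replicate block. With only the E2F forms TTTCCCGC and TTTGGCGC, 16 of 46 promoters held a match in place of 18. *Fen1* and *Orc1* were the only genes of the 56 under 100 normalized counts in a sample, so their counting error was larger, and DESeq2 called *Orc1* (adjusted p = 9.4e-05) and not *Fen1* (adjusted p = 0.0768).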
